A study of Homo sapiens with 5 samples.

Results

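HOX genes encode homeodomain transcription factors that record where along the body axis a cell arose. They lie in 4 clusters, HOXA on chromosome 7, HOXB on chromosome 17, HOXC on chromosome 12 and HOXD on chromosome 2, and related genes of the different clusters carry the same paralog number, from 1 to 13. Low numbers mark the head and neck end of the body, middle numbers the trunk, and high numbers the hind end and the tips of the limbs. Fibroblasts keep such a code in culture as a positional memory. Polycomb proteins hold unused HOX genes silent, Trithorax proteins keep used ones active, and TALE homeodomain proteins (PBX, MEIS and PKNOX) bind DNA together with the HOX proteins. The genes described here are those whose symbol is HOX, a cluster letter from A to D and a paralog number. There were 39 of them among the 27189 genes listed, 11 in HOXA, 10 in HOXB, 9 in HOXC and 9 in HOXD.

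The cells were HT1080, an established human fibrosarcoma line, embedded in collagen I at 2 mg per ml and harvested after 24 h. Every condition was this same line in the same matrix, with no genetic change named for any of them, and each was sequenced as 1 library. The LD (low density), IL-6, IL-8 and RM matrices held 10 cells per cubic mm at seeding, and the HD (high density) matrix held 50. IL-6 and IL-8 received that single recombinant cytokine, RM received both at a ratio of 5 to 2, and LD and HD received none. The study compared each condition with LD to ask how cell density, and the cytokines secreted at high density, alter the transcriptome. With 1 library per condition no difference below has a replicate check, and no test of one condition against another was made. All 4 comparisons share the LD library. In bulk RNA, fewer cells of a type and less RNA per cell cannot be told apart.

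The files list, per gene, a read count in whole numbers and TPM, a level corrected for transcript length and library total, which was rescaled here to a sum of 1000000. A difference is given as log2(TPM + 1) of a condition minus that of LD, which understates the change of low genes, and a gene was called higher or lower at 1 log2 unit or more. A gene was compared if any of the 5 libraries had it at 1 TPM or more, which left 21163 genes, among them 38 HOX genes. HOXC12, a hind-end gene, had no read in any library. Ranges in brackets are 95% intervals that cover counting error only. They are exact Poisson intervals for a level, and intervals from the exact binomial distribution of the reads for a share or for the ratio of 2 libraries. The cDNA had been amplified without molecular identifiers, so reads are not independent molecules and the true error is wider.

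The HD library stood apart from the others before any HOX gene was considered. It held 926376 reads, against 5096134 to 7118545 in the 4 libraries at low density, and after the ribosomal RNA entry RNA5-8S5 was set aside 449661 reads remained, against 1100967 to 1645539. The floor of 3 reads, the fewest counted here as detection, corresponded in HD to 6.67 CPM (reads per 1000000 outside RNA5-8S5) and to between 1.82 and 2.72 in the others. All 15 mesenchymal markers found had at least 3 reads in every library, including VIM (vimentin) with 10796 reads in LD and 206 in HD, but their summed level was 3600 TPM in HD against 11016 to 13916 TPM at low density. Markers of other cell types were higher in HD. At least 3 reads were found there for 7 of 11 epithelial, 8 of 12 blood cell, 6 of 12 neural and 4 of 8 hepatocyte markers, and at low density for 0 to 2, 1 to 2, 3 to 4 and 0 to 1. Those HD shares were 63.6%, 66.7%, 50% and 50%. Of all genes listed, 56.9% had at least 3 reads in HD and 40.4 to 45.8% at low density, so the HD shares lay on both sides of the background. Of the markers compared, 9 of 9 epithelial, 9 of 10 blood cell, 7 of 11 neural and 6 of 6 hepatocyte markers were called higher in HD. Of all genes compared, 61.9% were, many of them compared only because HD had them at 1 TPM. KRT5, ALB and TUBB3, picked after their values had been seen, had no read in HD or in any other library. Olfactory receptor genes, which a fibrosarcoma line is not known to use, summed to 5686 TPM in HD over 368 genes and to between 13.0 and 65.2 TPM at low density. A single receptor gene held 573 of their 1514 reads in HD, and 87 of the 368 had at least 3 reads there. Each HOX value from HD is to be read beside these values, and their part in it was not tested.

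The start regions of a pair of HOX genes are shown here because the results below turn on them: HOXC5, which differed most between the cytokine libraries, and HOXA9, a steady member at low density that had no read in HD. Each line gives the 250 bases before the annotated start, 5′ to 3′ on the gene's strand, from RefSeq on GRCh38.p14, a newer build than the GRCh37 (hg19) named in the processing notes. Capitals mark a match to TATAAA.
HOXC5 (chr12:54016638-54016887, plus strand): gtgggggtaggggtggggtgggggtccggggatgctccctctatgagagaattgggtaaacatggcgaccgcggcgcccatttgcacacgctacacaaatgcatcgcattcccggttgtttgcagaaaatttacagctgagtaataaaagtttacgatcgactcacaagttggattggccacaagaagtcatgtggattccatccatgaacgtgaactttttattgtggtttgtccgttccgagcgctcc
HOXA9 (chr7:27165538-27165787, minus strand): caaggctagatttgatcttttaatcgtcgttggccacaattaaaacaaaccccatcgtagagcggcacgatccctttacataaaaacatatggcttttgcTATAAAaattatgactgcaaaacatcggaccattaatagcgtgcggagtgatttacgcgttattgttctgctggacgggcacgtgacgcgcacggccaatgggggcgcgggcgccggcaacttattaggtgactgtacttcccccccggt
HOXC4 shares the first window, since RefSeq lets HOXC4, HOXC5 and HOXC6 overlap one another. Reads on these 3 genes may therefore have been divided among them by the counting, and their separate values are uncertain. RefSeq gave a window for 20 of the 39 HOX genes, 26 windows in all. On either strand, TATAAA was present in 5 of these 26 windows and in 10.8% of all 34943 windows. TTCNNNGAA, letters like those bound by STAT factors, was in 0 of 26 and in 6.56% of all, and TGANTCA, like those bound by AP-1, in 0 of 26 and 6.59%. Only TATAAA matched in the HOX windows, so no matches to different letters overlapped there, and a match or its absence in these windows is a description only.

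HT1080 cells in LD carried a HOX code centred on the trunk and hind trunk. In LD, 24 of the 39 HOX genes had at least 3 reads, where 45.8% of all genes listed did. They came from all 4 clusters. Paralog groups 9 and 10 had 186 CPM (166 to 208) and groups 4 to 8 had 202 (181 to 225). Groups 1 to 3 had 24.3 (17.4 to 33.1) and groups 11 to 13 had 18.2 (12.3 to 26.0). The head end and the hind tip of the code were thus read about as rarely as each other, as the map of the 4 clusters shows. HOXC10, a gene of the hind trunk and hind limb, had the highest LD level at 50.2 TPM (42.1 to 59.4). Its interval did not overlap that of HOXB7, next in order at 32.3 TPM (24.6 to 41.7). HOXB7, HOXC5 at 29.3 TPM (22.6 to 37.5) and HOXC8 at 23.5 TPM (18.4 to 29.4) overlapped one another and cannot be ordered at this depth. HOXA9, HOXB9 and HOXA6 followed at 17.7, 17.3 and 16.8 TPM, again with overlapping intervals.

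**Figure D1:**
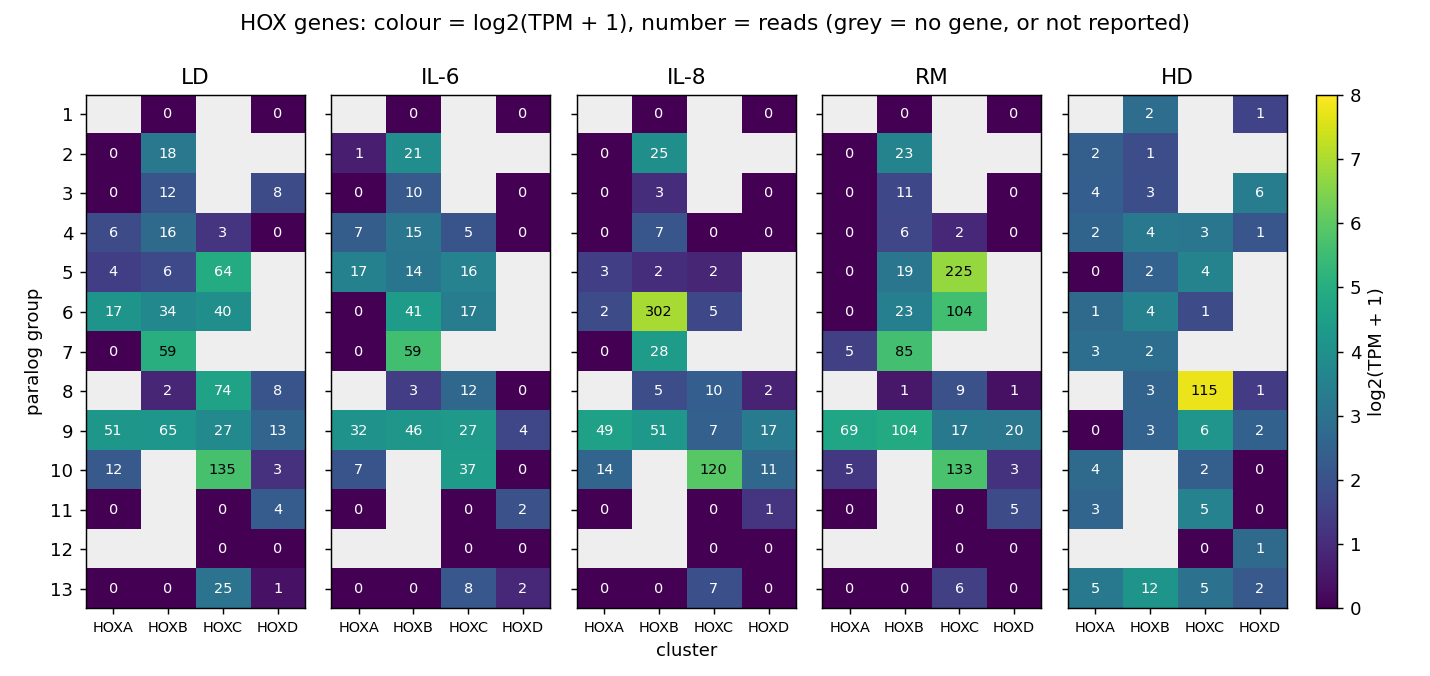
Level of the HOX genes in each library, with cluster on the x axis, paralog group on the y axis, colour for log2(TPM + 1) and the number of reads in each cell (grey cells hold no gene or are not reported). The 4 libraries at low density share the bright row of group 9 and differ in single genes, such as HOXB6 with 302 reads with IL-8 and HOXC5 with 225 reads in RM, while HD has 115 reads on HOXC8 and few on each other gene.

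Across the 39 HOX genes, 16 had a read in all 5 libraries, 14 had at least 3 reads in each of the 4 libraries at low density, and 21 reached 10 reads in at least 1 library. The other 18 had at most 9 reads in every library. Over all 39, Pearson's r of log2(TPM + 1) lay between 0.707 and 0.828 for pairs of libraries at low density, against 0.890 to 0.937 over all genes compared. For pairs with HD it lay between -0.023 and 0.160, against 0.316 to 0.348 over all genes. These correlations are across genes, which share library depth and are not independent replicates. The HOX code of the low-density libraries was alike in outline, though each had a different leading gene, and that of HD differed from each of them.

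HOXA9, HOXB9, HOXB7, HOXB2 and HOXD9 each stayed within 1 log2 unit of LD in all 3 cytokine libraries. HOXA9, which marks the trunk and is also used by blood progenitors, had 51 reads in LD, 32 with IL-6, 49 with IL-8, 69 in RM and 0 in HD. HOXB9, its paralog in HOXB, had 65, 46, 51, 104 and 3 reads in the same order. HD was the lowest library for each. HOXB7, a trunk gene, had 59 reads in LD, 59 with IL-6, 28 with IL-8, 85 in RM and 2 in HD. HOXB2, active in the hindbrain and neck, had 18, 21, 25, 23 and 1 reads and was the highest gene of groups 1 to 3 at low density. HOXD9, the HOXD gene with the most reads at low density, had 13, 4, 17, 20 and 2 reads. Under median-ratio scaling, whose factor for RM relative to LD differs from the main one by 0.74 on the log2 scale, RM passed 1 log2 unit for HOXA9, HOXB7 and HOXB9, at 1.19, 1.29 and 1.41.

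Another 5 members of the code, taken next, had at most 27 reads in any library. HOXA10, a gene of the hind trunk and uterus, had 12, 7, 14, 5 and 4 reads in LD, the IL-6 and IL-8 libraries, RM and HD. HOXB3, a neck gene, had 12, 10, 3, 11 and 3, and HOXB4, a neck gene also active in blood stem cells, had 16, 15, 7, 6 and 4. The counting interval of the ratio to LD included 1 in every library for these 3 genes, so no difference was detectable at this depth, although HOXB3 with IL-8 and HOXB4 in RM passed the threshold of 1 log2 unit. HOXC9, a trunk gene, had 27, 27, 7, 17 and 6 reads. HOXC13, active in hair follicles and at the hind end, had 25, 8, 7, 6 and 5 and was the only gene of groups 11 to 13 with at least 3 reads in all 4 low-density libraries. Neighbours in RefSeq overlap HOXB3 with HOXB4, HOXA3 with HOXA4, HOXA5 and HOXA6, and HOXD3 with HOXD4, so these reads too may have been divided by the counting.

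**Figure D2:**
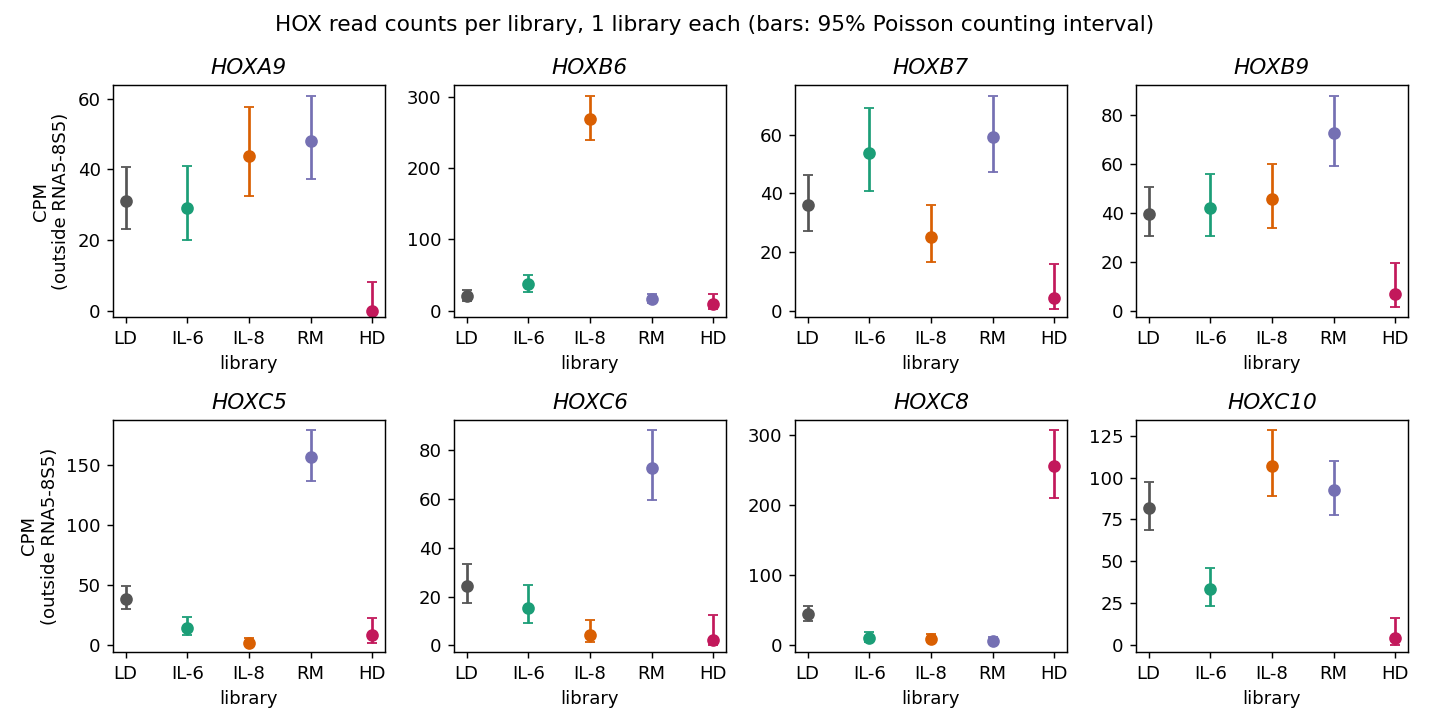
CPM (reads per 1000000 outside RNA5-8S5, y axis) for 8 HOX genes in the 5 libraries (x axis), 1 point per library with its 95% Poisson counting interval. HOXB6 stands out with IL-8, HOXC5 and HOXC6 in RM and HOXC8 in HD, while HOXA9, HOXB7, HOXB9 and HOXC10 are lowest in HD.

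The HOX genes together took 431 CPM in LD (400 to 464), 370 with IL-6 (335 to 407), 601 with IL-8 (557 to 649) and 611 in RM (571 to 653). HD had 505 CPM (441 to 575). The intervals of IL-8 and RM overlapped each other and lay above those of LD and IL-6. How these reads fell on the clusters differed among libraries. HOXC held 49.6% of the summed HOX TPM in LD, 30.5% with IL-6, 24.4% with IL-8, 59.1% in RM and 63.0% in HD. HOXB held 29.3%, 51.4%, 59.6%, 29.9% and 15.5% in the same order. HOXC was thus the leading cluster in LD, RM and HD, and HOXB with IL-6 and IL-8. HOXA held between 7.65 and 15.5% and HOXD between 2.61 and 6.99%.

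Some of the cluster differences rested mainly on 1 gene and others on several. HOXC was at 224 CPM in LD (201 to 248) and at 111 with IL-6, with intervals that did not overlap and lower counts on HOXC5, HOXC8 and HOXC10, while HOXB with IL-6 was at 190 CPM (165 to 217), spread over several genes. HOXB was at 129 CPM in LD (112 to 147) and 377 with IL-8 (342 to 415), and HOXB6 alone gave 44.8% of all HOX reads with IL-8 against 4.80% in LD. HOXC was at 346 in RM (316 to 378), and HOXC5 gave 25.7% of all HOX reads in RM against 9.03% in LD. In HD, HOXC8 gave 50.7% of all HOX reads against 10.4% in LD. Without HOXC8 the HOX total was 386 CPM in LD (356 to 417) and 249 in HD (205 to 300), so HD turned from above LD, with overlapping intervals, to below it. HOXC8 was left out because it led in HD, so this step had to lower HD against LD. Totals without HOXB6 or HOXC5, which led with IL-8 and in RM, were not computed. With IL-8, HOXC was at 135 CPM (114 to 158), with lower counts on 5 of its genes described below. HOXA differed little, between 55.1 and 61.8 CPM at low density and at 80.1 in HD (56.1 to 111). HOXD was lowest with IL-6, with 8 reads over its 9 genes.

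**Figure D3:**
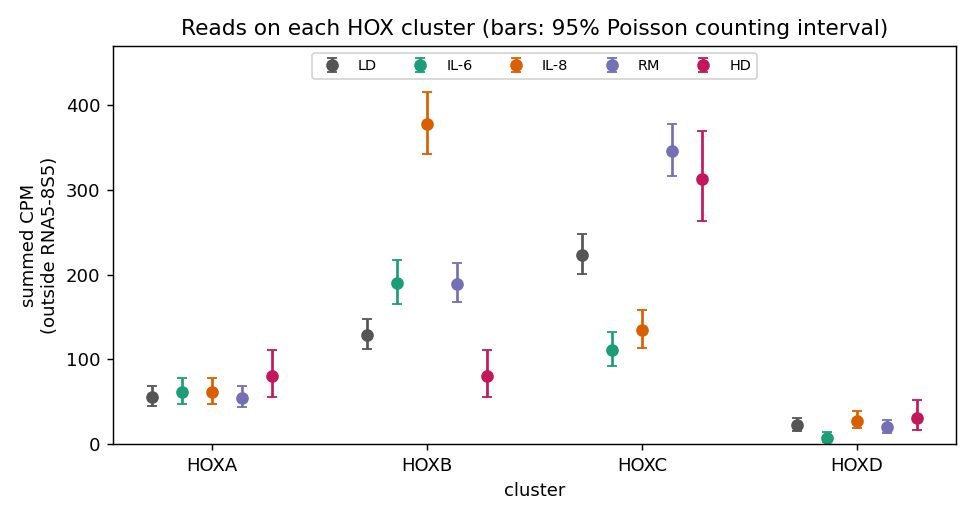
Summed CPM outside RNA5-8S5 (y axis) on the genes of each HOX cluster (x axis) in the 5 libraries, with 95% Poisson counting intervals. HOXB is highest with IL-8 at 377, HOXC in RM at 346 and HD at 314, and the HOXA intervals of all 5 libraries overlap.

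IL-6, a cytokine that signals through JAK and STAT3, was compared with LD first. In the IL-6 library 3 well-read HOXC genes were lower, and the 2 HOX genes called higher had few reads. HOXC8, a trunk gene, had 74 reads in LD and 12 with IL-6 (23.5 and 5.54 TPM), a difference of -1.90 on the log2 scale and a count ratio of 0.242 (0.120 to 0.449). HOXC10 had 135 reads in LD, 37 with IL-6, 120 with IL-8, 133 in RM and 2 in HD, and its IL-6 library showed a difference of -1.28 and a ratio of 0.410 (0.277 to 0.593). HOXC5, a neck and trunk gene, had 64 and 16 reads, a difference of -1.38 and a ratio of 0.374 (0.202 to 0.654). All 3 lay beyond counting error, and HOXC6 and HOXC9 of the same cluster stayed within 1 log2 unit. HOXA6, a trunk gene, had 17 reads in LD, 0 with IL-6, 2 with IL-8, 0 in RM and 1 in HD. LD alone was high, and IL-6 was at least 3.79-fold lower when the floor of 3 reads is taken for it. HOXA5, a lung and trunk gene, was higher with IL-6, at 17 reads against 4 in LD, 3 with IL-8 and 0 in both RM and HD, a difference of 2.04 and a ratio of 6.35 (2.07 to 25.9). HOXB5 had 6 and 14 reads, a difference of 1.35 and a ratio of 3.49 (1.26 to 11.1). RefSeq places an antisense gene, HOXB-AS3, over HOXB5 and HOXB6, and a library that does not mark strand cannot tell their reads apart. HOXB-AS3 itself had 0 reads in LD, 5 with IL-6, 0 with IL-8, 1 in RM and 5 in HD.

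Of the 38 HOX genes compared, 7 were called lower with IL-6, where 7.47% of all genes compared were, and 2 were called higher, where 9.84% of all were. These shares were 18.4% and 5.26% of the HOX genes. The lower ones were HOXA6, HOXC5, HOXC8, HOXC10, HOXD3, HOXD8 and HOXD10. With a counting interval that leaves out 1 as a further condition, 6 remained lower against 4.41% of all genes, and 2 higher against 5.65%. The median difference was 0 for the HOX genes and for all genes compared, since many had no read in either library.

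IL-8, a chemokine that signals through CXCR1 and CXCR2, was compared with LD next, and HOXB6 was the gene that set this library apart from the other 4. HOXB6, a trunk gene also used by blood cells, had 34 reads in LD, 41 with IL-6, 302 with IL-8, 23 in RM and 4 in HD, which is 12.4, 20.5, 122, 10.0 and 10.4 TPM. The IL-8 library was high and the others were low. The IL-8 minus LD difference was 3.20 and the count ratio 13.0 (9.13 to 19.2). Its neighbours did not share it: HOXB5 had 2 reads and HOXB7 had 28 with IL-8, against 6 and 59 in LD. HOXB8, also a trunk gene, had 5 against 2, with a ratio whose interval included 1. HOXD10, a hind limb gene, had 3 reads in LD, 0 with IL-6, 11 with IL-8, 3 in RM and 0 in HD, and a ratio of 5.38 (1.42 to 30.1) between IL-8 and LD. The 12 neural markers summed to 996 TPM with IL-8 and to between 26.5 and 98.2 TPM in the other libraries, with 969 TPM from GAD1, a GABA-making enzyme, and 4 of 12 at 3 reads or more with IL-8 as in LD, and their part in these values was not tested.

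HOXC genes were lower with IL-8. HOXC5 had 2 reads with IL-8 (0.807 TPM) against 64 in LD (29.3 TPM), a difference of -4.07 and a ratio of 0.046 (0.005 to 0.173). HOXC6, a trunk gene, had 5 against 40 reads, a difference of -2.25 and a ratio of 0.184 (0.057 to 0.465). HOXC8 had 10 against 74, a difference of -2.22 and a ratio of 0.198 (0.091 to 0.386). HOXC10 did not follow them, with a difference of 0.25. HOXC9 had 7 against 27 reads, with a difference of -1.34 and a ratio of 0.381 (0.140 to 0.896), and HOXC13 had 7 against 25, with a ratio of 0.411 (0.150 to 0.978). HOXA6 had 2 against 17 reads and a ratio of 0.173 (0.019 to 0.728).

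Of the 38 HOX genes compared, 12 were called lower with IL-8, where 16.4% of all genes were, and 3 were called higher, where 7.99% of all were. These shares were 31.6% and 7.89% of the HOX genes. Of those called lower, 6 were HOXC genes. With the counting condition added, 7 were lower against 11.2% of all genes and 2 were higher against 5.51%. Under median-ratio scaling, which changes the IL-8 to LD factor by 0.52 on the log2 scale, 13.2% of the HOX genes were higher and 21.1% lower (5 and 8 genes), against 13.2% and 10.3% of all genes. Under TMM scaling of CPM, which changes the factor by 0.39, 7.89% were higher and 13.2% lower (3 and 5 genes), against 7.81% and 8.10% of all. HOXB6 was called higher under every scaling tried.

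RM, the mixture of both cytokines, was compared with LD and with each cytokine alone. HOXC5 had 64 reads in LD, 16 with IL-6, 2 with IL-8, 225 in RM and 4 in HD, which is 29.3, 10.7, 0.807, 107 and 10.8 TPM. HOXC6 had 40, 17, 5, 104 and 1 reads. RM was the highest library for both genes and each single cytokine was below LD. For HOXC6 with IL-6 this was within counting error, with a ratio to LD of 0.635 (0.338 to 1.15). The RM minus LD difference of HOXC5 was 1.83 with a ratio of 4.03 (3.04 to 5.41), and that of HOXC6 was 1.58 with a ratio of 2.98 (2.05 to 4.41). Against IL-6, the RM ratio of HOXC5 was 10.8 (6.50 to 19.2) and that of HOXC6 was 4.70 (2.80 to 8.37). Against IL-8 these ratios were 87.9 (24.1 to 730) for HOXC5, which rests on 2 reads with IL-8, and 16.3 (6.75 to 51.1) for HOXC6. Because the annotation overlaps these genes and HOXC4, they cannot be counted as separate observations, and HOXC4 itself had 3, 5, 0, 2 and 3 reads.

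HOXB5 was also higher in RM, with 19 reads against 6 in LD, a difference of 1.38 and a ratio of 3.63 (1.40 to 11.1). Its values were 6, 14, 2, 19 and 2 reads in LD, the IL-6 and IL-8 libraries, RM and HD, so IL-6 and RM lay above the others. HOXA7, a trunk gene, had 5 reads in RM and 0 in LD, at least 1.91-fold higher against the floor of 3 reads. HOXC8 was lower in RM, with 9 reads against 74, a difference of -2.63 and a ratio of 0.140 (0.061 to 0.279). Its low-density values were 74 in LD and 12, 10 and 9 in the cytokine libraries, so LD alone was high among them. HOXC13 had 6 against 25 reads and a ratio of 0.275 (0.092 to 0.688). HOXA6 had 0 reads in RM, at least 4.94-fold lower than LD against the floor of 3 reads. HOXC10 in RM differed from LD by 0.02 and stood above IL-6 with a ratio of 2.76 (1.90 to 4.09).

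Of the 38 HOX genes compared, 4 were called higher in RM, where 6.44% of all genes were, and 8 were called lower, where 20.4% of all were. The lower share of HOX genes was 21.1%, close to that background. With the counting condition added, 4 were higher against 4.97% of all genes and 5 were lower against 16% of all. Median-ratio scaling gave 9 higher and 6 lower HOX genes in RM, 23.7% and 15.8% against 13.2% and 11.5% of all genes. TMM scaling of CPM, which changes the RM to LD factor by 0.57, gave 6 higher and 4 lower, 15.8% and 10.5% against 8.17% and 9.26% of all. With genes filtered on the 4 low-density libraries alone, 14267 genes were compared, 27 of them HOX genes. The HOX genes called in RM did not change, and they made up 14.8% higher and 29.6% lower, against 9.55% and 30.3% of all.

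**Figure D4:**
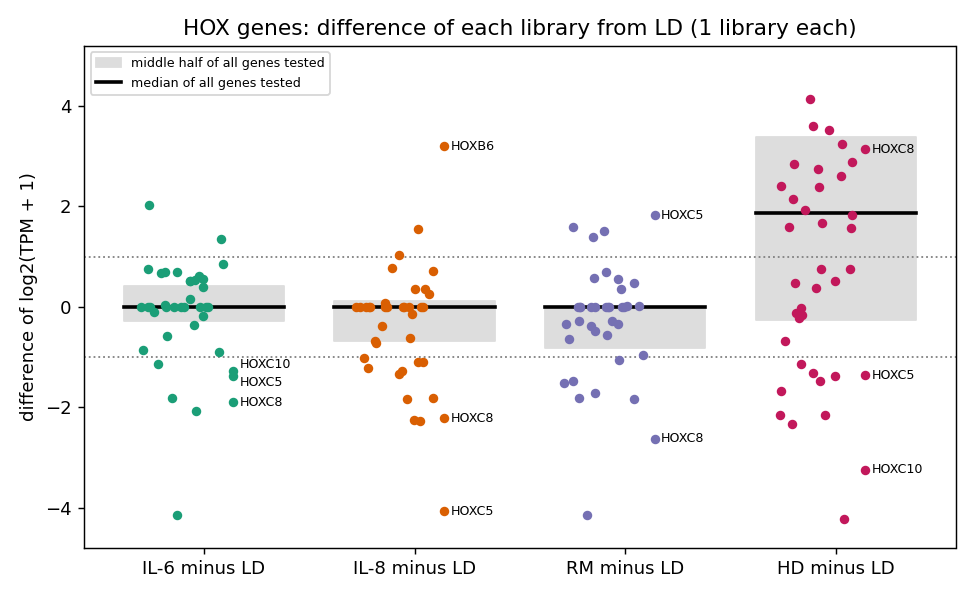
Difference of log2(TPM + 1) from LD (y axis) for the 38 HOX genes compared, 1 point per gene, with IL-6, IL-8, RM and HD (x axis). Black lines and grey boxes give the median and the middle 50% of all 21163 genes, dotted lines the threshold of 1 log2 unit, and in HD most HOX points lie below the all-gene median of 1.86.

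By TPM the leading HOX gene differed in every library. It was HOXC10 in LD, HOXB7 with IL-6, HOXB6 with IL-8, HOXC5 in RM and HOXC8 in HD. HOXC8 had 74 reads in LD, 12 with IL-6, 10 with IL-8, 9 in RM and 115 in HD, which is 23.5, 5.54, 4.25, 2.94 and 215 TPM. HD was the highest library although it had the fewest reads, and the cytokine libraries were the lowest. The HD minus LD difference was 3.14, and the ratio of reads was 5.69 (4.21 to 7.72). Against RM the ratio of reads was 40.8 (20.7 to 91.4). The difference is taken from TPM and the ratio from reads outside RNA5-8S5, so the 2 need not match in size. For HOXC9 in HD they did not match in direction, at 0.37 and 0.813. RefSeq overlaps HOXC8 with no other HOX gene or antisense gene. Under TMM scaling the difference between HD and LD was 1.84.

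Most other leading HOX genes were lower in HD. HOXC10 had 2 reads in HD against 135 in LD, a difference of -3.25 and a ratio of 0.054 (0.006 to 0.200). HOXA9 had 0 reads against 51, at least 4.65-fold lower against the floor of 3 reads. HOXB7 had 2 against 59 and a ratio of 0.124 (0.015 to 0.468), and HOXB9 had 3 against 65 and a ratio of 0.169 (0.034 to 0.516). HOXA9, HOXB7 and HOXB9 were among the genes within 1 log2 unit of LD in every cytokine library, while HOXC10 was not. HOXC5 had 4 against 64 and a ratio of 0.229 (0.060 to 0.615), and HOXC6 had 1 against 40 and a ratio of 0.091 (0.002 to 0.540). Groups 9 and 10 together went from 186 CPM in LD to 37.8 in HD (22.0 to 60.5).

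Some genes of the head end and hind tip were read in HD alone. Groups 1 to 3 went from 24.3 CPM in LD to 68.9 in HD (46.8 to 97.9). Groups 11 to 13 went from 18.2 to 73.4 CPM (50.5 to 103). The HD to LD ratio was 0.203 (0.005 to 1.29) for HOXB2, 0.915 (0.166 to 3.39) for HOXB3 and 0.732 (0.219 to 1.95) for HOXC13. Each of these intervals included 1. Of the 10 HOX genes with no read at low density, 9 had at least 1 read in HD, with 12 at most, and HOXC12 had none. HOXB13, a hind-end gene known in prostate, had 12 reads in HD (16.7 TPM) and 0 in every other library, at least 14.6-fold higher than LD against the floor of 3 reads. HOXC11, HOXA13, HOXA3 and HOXA11 had 5, 5, 4 and 3 reads in HD and 0 elsewhere. The background for such reads was high: of the 9665 genes of the whole table with no read at low density, 42.6% had a read in HD, as did 59.1% of 313 olfactory receptor genes.

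Of the 38 HOX genes compared, 17 were called higher in HD, where 61.9% of all genes were, and 11 were called lower, where 17.9% of all were. These shares were 44.7% and 28.9% of the HOX genes, and the medians were 0.64 for HOX and 1.86 for all genes. However, 11 of the 38 HOX genes and 6896 of all genes were compared only because HD had them at 1 TPM, so that their direction was set by the filter. All 11 were among the 17 called higher. With genes filtered on the 4 low-density libraries, 6 of 27 HOX genes were higher (22.2%) and 11 lower (40.7%), against 43.9% and 26.5% of all genes, and the medians were -0.17 for HOX and 0.55 for all. With the counting condition added, 8 were higher against 42.5% of all genes and 6 were lower against 14.8%. Among the 14 HOX genes with at least 3 reads in all 4 low-density libraries, 6 were lower in HD and 1, HOXC8, was higher. For the 9065 genes of the whole table that meet the same condition, 3220 were lower (35.5%) and 2891 were higher. The medians were -0.20 for HOX and -0.19 for all. The excess of lower HOX genes depended on the unit and scaling. On CPM of all reads, 17 of the 38 were higher and 5 lower, and the lower share was 13.2% against 12.5% of all genes. With TMM scaling of that CPM, which changes the HD to LD factor by -1.65, 8 were higher and 9 lower, 21.1% and 23.7% against 38.7% and 24.6% of all. The HD values rest on 227 HOX reads and 3 HOX genes with at least 10 reads, and the marker and olfactory receptor values given above moved with them.

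HOX proteins bind DNA with TALE partners of the PBX, MEIS and PKNOX families. In all, 11 TALE genes were looked up, of which 10 were compared. They include TGIF1 and TGIF2, which are not of these 3 families, so the counts are not of partners alone. With IL-6, 1 was called higher and 0 lower, with IL-8 1 and 3, in RM 0 and 3, and in HD 5 and 3. Those lower in HD were PBX3, TGIF1 and TGIF2. The all-gene shares to set beside these and the lists that follow were 9.84% higher and 7.47% lower with IL-6, 7.99% and 16.4% with IL-8, 6.44% and 20.4% in RM, and 61.9% and 17.9% in HD. A gene that reached 1 TPM in HD alone could not be called lower, and 98.9% of such genes were called higher in HD. With genes filtered on the 4 low-density libraries, the all-gene shares were 9.55% and 30.3% in RM and 43.9% and 26.5% in HD. The lists were not filtered in that way. TGIF2, a repressor of the TGF-beta pathway, had the highest TALE level, with 247 reads in LD, 156 with IL-6, 126 with IL-8, 241 in RM and 28 in HD. TGIF1, its close relative, had 79, 58, 12, 37 and 2 reads and was lower with IL-8 by a difference of -2.18. PBX3, the leading PBX partner, had 53, 37, 15, 26 and 3 reads, with a difference of -1.42 with IL-8. MEIS2 had 9, 9, 29, 11 and 3 reads and was higher with IL-8, with a difference of 1.40.

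Chromatin regulators of the HOX clusters were mostly read well at low density. Of 31 Polycomb genes compared, 2 were called higher and 2 lower with IL-6, 2 and 6 with IL-8, 3 and 11 in RM, and 10 and 12 in HD. The lower shares were 35.5% in RM and 38.7% in HD, against 20.4% and 17.9% of all genes. Of these 31 genes, 27 had at least 3 reads in LD, so the all-gene shares under the low-density filter are a nearer background. Those were 30.3% in RM and 26.5% in HD. PCGF2, a subunit of Polycomb repressive complex 1 also called MEL18, had 155 reads in LD, 139 with IL-6, 163 with IL-8, 534 in RM and 3 in HD. Its RM difference was 1.81. CBX8, a chromodomain subunit of the same complex, had 6, 11, 124, 17 and 0 reads, a difference of 4.37 with IL-8. Each of them was thus high in 1 library, PCGF2 in RM and CBX8 with IL-8. PHF19, an accessory subunit of Polycomb repressive complex 2, had 60, 19, 11, 4 and 18 reads. By TPM it was highest in HD, at 22.3 against 12.9 in LD. That difference was 0.74, and the counting interval of the ratio included 1. Of 14 Trithorax and H3K27 demethylase genes, 0 were called higher and 0 lower with IL-6, 1 and 2 with IL-8, 1 and 4 in RM, and 3 and 6 in HD. Their lower shares were 28.6% in RM and 42.9% in HD, beside the same all-gene shares under each filter. All 14 had at least 3 reads in LD. KMT2A, the MLL methyltransferase that keeps HOX genes active, had 405, 211, 183, 304 and 21 reads and stayed within 1 log2 unit of LD at low density.

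Retinoic acid sets HOX expression in the embryo, and of 18 genes known to act upstream of HOX genes 2 were called higher and 1 lower with IL-6, 2 and 1 with IL-8, 0 and 5 in RM, and 10 and 3 in HD. Their lower share in RM was 27.8% against 20.4% of all genes, and their higher share in HD was 55.6% against 61.9%. Several of these genes reached 1 TPM in HD alone, so their direction there was set by the filter. CRABP2, which carries retinoic acid to its receptors, had 34 reads in LD, 2 with IL-6, 343 with IL-8, 0 in RM and 29 in HD. Its difference from LD was -3.05 with IL-6 and 3.68 with IL-8. RARA, a retinoic acid receptor, had 98, 152, 57, 22 and 4 reads, with a difference of -2.19 in RM. The IL-8 library was high for CRABP2 as for HOXB6, and RM was the lowest low-density library for both retinoid genes. ZBTB16, a repressor known to act on HOX genes in the limb, had 2 to 7 reads at low density and 153 in HD, a difference of 6.33.

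Among 49 other transcription factors of position, 6 were called higher and 6 lower with IL-6, 5 and 6 with IL-8, 1 and 8 in RM, and 38 and 7 in HD. Their higher share in HD was 77.6%, where 61.9% of all genes were higher, and their lower share in RM was 16.3% against 20.4%. Many of these genes reached 1 TPM in HD alone, so their direction there was set by the filter. PITX1, which marks the hind limb, had 228 reads in LD, 162 with IL-6, 146 with IL-8, 234 in RM and 25 in HD, at 44.3 to 73.1 TPM, within 1 log2 unit of LD in every library. TBX4, the other hind limb factor, had no read in any library, and TBX5, a forelimb factor, had 0, 1, 0, 1 and 3 (both were picked after their values had been seen). SHOX2, a limb bone factor, had 164, 210, 346, 127 and 6 reads and was higher with IL-8, with a difference of 1.50. Reads were also high there for DLX2, a head and limb factor, with 48 reads with IL-8 against 4 in LD. SHOX had 88 reads in HD and 4 to 7 at low density, a difference of 6.48.

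Noncoding genes of the HOX clusters were sparse. Of 30 symbols looked up, 20 were listed and 11 were compared, and 3 were called higher and 0 lower with IL-6, 2 and 1 with IL-8, 2 and 1 in RM, and 8 and 3 in HD. Their higher shares were 27.3% with IL-6 and 72.7% in HD, against 9.84% and 61.9% of all genes. Some of these genes reached 1 TPM in HD alone, so their direction there was set by the filter. HOXA-AS4, called HOXA10-AS in RefSeq and antisense to HOXA10, had 37 reads in LD, 13 with IL-6, 5 with IL-8, 5 in RM and 1 in HD, with differences of -2.34 with IL-8 and -2.57 in RM. LD was the highest library for it, while HOXA10 itself had 12, 7, 14, 5 and 4 reads. FLJ12825, a noncoding gene of the HOXC cluster, had 35 reads in HD and 0 to 3 at low density. HOTAIR and HOTTIP, noncoding RNAs of the HOXC and HOXA clusters, had 1 read each in HD and 0 at low density (chosen after their values had been seen). The 6 miRNA genes of the clusters that were looked up had no read in any library.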

How the data were processed

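Poly-A primed cDNA from the 5 libraries was amplified as a whole pool with phi29 polymerase, tagmented and sequenced as 50-base single reads. Alignment by the authors used Bowtie2, and RSEM gave gene values. The submitters' processing notes also name CASAVA 1.4, Bowtie, Bowtie2 2.3.1, RSEM 1.2.25, FastQC and GRCh37 (hg19), without roles. Per gene, the authors deposited a read count in whole numbers and a TPM value, and nothing states that strand was used. The authors' amplification can move single genes between libraries, which 1 library per condition cannot show.

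TPM was rescaled to 1000000 per library and compared as log2(TPM + 1) over genes that reached 1 TPM in any library. The difference of 2 libraries was called at 1 log2 unit. Intervals are exact at 95% (Poisson, or Clopper-Pearson for shares and for the ratio of reads outside RNA5-8S5), and the floor is 3 reads. HOX genes that reached 10 reads in any library are named with all 5 values, and the others by ranges and counts. Some genes that these rules would name, 1 of them a HOX gene, are counted but not reported here. From every other list the text draws on the 4 genes with the highest mean TPM and up to 4 more with the largest difference among those with at least 10 reads in the higher library. The HOX genes and the lists were chosen with earlier results of these data known. Alternatives were pseudocounts of 0.1 and 5, other filters, a threshold of 2 log2 units, CPM of the counts, median-ratio size factors (applied to TPM relative to the library totals) and TMM (edgeR 4.0.16). A filter that leaves out HD was added after the values had been seen. RefSeq (GRCh38.p14) gave gene neighbours and start regions, and no protein sequences were used here. The work used R 4.3.3 and Python 3.11.15 with scipy 1.17.1, pandas 2.3.3, numpy 2.4.6 and matplotlib 3.10.9.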

Additional observations from a re-analysis of the deposited data

How the results depend on the processing

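Every HOX gene called in a comparison kept its direction under the 4 other scalings, while the number called moved. The cause of each move was not tested beyond the construction of the alternative. Most counts that follow are given without the share of all genes, which also moved with the setting. Where that share is not given here or above, the count is no result about the HOX genes. With a pseudocount of 0.1, 7 HOX genes were higher with IL-6, and with a pseudocount of 5 the higher and lower counts were 1 and 4 with IL-6, 1 and 4 with IL-8, 2 and 2 in RM, and 10 and 7 in HD. CPM of all reads gave 6 lower with IL-8, 4 in RM and 5 in HD. Median-ratio scaling gave 5 higher with IL-8 and 9 in RM, and it changed the log2 factor relative to LD by 0.52 with IL-8, 0.74 in RM and -0.86 in HD. TMM gave 5 lower with IL-8, 4 lower in RM and 8 higher in HD. Among genes with at least 10 TPM in a library, higher and lower counts were 1 and 4 with IL-6, 1 and 5 with IL-8, 2 and 3 in RM, and 4 were higher in HD. Among genes with at least 10 reads in 1 of the 2 libraries, 4 were lower with IL-6, 7 with IL-8 and 4 in RM, and 3 were higher in HD. At 2 log2 units, 1 was higher and 2 lower with IL-6, 1 and 4 with IL-8, 0 and 2 in RM, and 5 were lower in HD. With a counting interval that leaves out 1, the lower counts were 7 with IL-8, 5 in RM and 6 in HD, where 8 were higher. Leaving HD out of the filter, an alternative chosen after the data had been seen, kept 27 HOX genes and changed no HOX count at low density, while 6 were higher in HD. The HOX shares then were 7.41% higher and 25.9% lower with IL-6 and 11.1% and 44.4% with IL-8, against 14.6% and 11.1%, and 11.9% and 24.3%, of all genes.

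Detection rested on depth. Of the 39 HOX genes, 24 had at least 3 reads in LD, 21 with IL-6, 17 with IL-8, 19 in RM and 19 in HD. Of all genes listed, 45.8%, 45.1%, 40.5%, 40.4% and 56.9% did, in the same order. With all libraries thinned to the HD depth, 16.0, 16.4, 12.2, 13.3 and 19 HOX genes were expected. Thinning was not done for all genes, so the thinned counts have no background and are no result about the HOX genes. With at least 10 reads, 10 HOX genes were detected with IL-8, 12 in RM and 3 in HD, against 27.9%, 28.0% and 31.0% of all genes. At least 1 read was found in HD for 34 HOX genes and for 74.0% of all genes. With the highest gene of each cluster left out, the HD shares of summed HOX TPM were 25.4% for HOXA, 28.8% for HOXB, 34.0% for HOXC and 11.9% for HOXD. No paired analysis was possible because each condition had 1 library.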
